A study of Mus musculus with 11 samples.

Results

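The genes of sterol and fatty acid synthesis and of their control were followed in cultured mouse cavernous endothelial cells. The 37 genes were chosen by symbol, and each was found in every one of 11 RNA-seq libraries among 23238 gene symbols. All 37 were among the 18248 genes tested, which had 1 or more normalized counts in 3 or more libraries. They fall into 4 classes: 20 genes of cholesterol synthesis and sterol handling, 9 of fatty acid synthesis including Srebf1, 5 of the liver X receptor (LXR) arm, and 3 that control sterol sensing.

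The groups were as follows: 4 libraries came from cells kept in high glucose with Hsp70, a heat shock protein and chaperone, 4 from cells in high glucose alone, and 3 from cells in normal glucose. In every group the label for the source is the mouse corpus cavernosum, the erectile tissue of the penis, and the cells were grown in medium M199 with serum, antibiotics and heparin and exposed for 5 days. Neither the glucose concentrations, the dose and form of Hsp70, nor the age or strain of the animals is given in the labels. Nothing in the labels says that libraries came from separate cultures or animals, so the p-values measure the spread between these libraries, which may be technical. Each deposited file also carries a set number from 2 to 5, whose meaning the labels do not give. Sets 3, 4 and 5 hold 1 library of each group, and set 2 holds 1 library with Hsp70 and 1 in high glucose.

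Cells read their own sterol content through SREBP proteins, transcription factors held in the endoplasmic reticulum by Scap and the Insig proteins while sterol is plentiful. When sterol falls, Scap carries SREBP to the Golgi, where it is cut and released to the nucleus. SREBP2, the product of Srebf2, mainly drives the enzymes of cholesterol synthesis, and SREBP1c, a product of Srebf1, mainly drives those of fatty acid synthesis. LXR works in the opposite situation: when activated by oxysterols it raises the efflux pumps Abca1 and Abcg1, the ubiquitin ligase Mylip, and Srebf1 itself.

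Markers of the labelled cell type were low in most libraries, and file set 3 stood apart. The summed level of 12 endothelial markers was 10.94 to 11.08 in set 3 and 8.44 to 9.09 in the other sets, on the log2 scale of normalized counts plus 1 used throughout, while that of 9 fibroblast markers was 18.27 to 18.58 in set 3 and 17.29 to 17.99 elsewhere. Of the endothelial list, Tie1, Cldn5 and Robo4 were at 0 in at least 1 library of set 2. In all libraries outside set 3 they reached at most 2.33, 0.238 and 1.70. The files differ in form between sets: 11.85% of symbols were at 0 in each of the 6 libraries of sets 4 and 5, against 21.16% to 25.86% in sets 2 and 3, and genes at 0 in sets 2 or 3 can hold small values above 0 in sets 4 and 5. In RNA from whole cultures, fewer cells of a type and less RNA per cell cannot be told apart. Each library held 24.8 to 27.8 M normalized counts in all.

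Promoter sequences are shown for 4 genes that the values below return to. Hmgcs1 and Idi1 had the smallest unadjusted p-values of the 37 genes in a comparison with Hsp70, and Insig1 and Insig2, products of separate genes that both retain Scap, lay on opposite sides in set 3. Each runs 5′ to 3′ from 250 bases before to 50 bases after a RefSeq start site on GRCm38.p6, and capitals mark the sterol element TCACNCCAC and the NF-Y box CCAAT on either strand. Hmgcs1 (chr13:119690101-119690400, plus strand) had 1 sterol element, at position -137 from the start site, and 4 NF-Y boxes. Idi1 (chr13:8885356-8885655, plus strand) had 2 NF-Y boxes, Insig1 (chr5:28071162-28071461, plus strand) had 1, and the most upstream start of Insig2 (chr1:121332540-121332839, minus strand) had 3. The Insig2 promoters at chr1:121327629-121327928 and chr1:121327975-121328274, which are not shown, had 0.
Hmgcs1: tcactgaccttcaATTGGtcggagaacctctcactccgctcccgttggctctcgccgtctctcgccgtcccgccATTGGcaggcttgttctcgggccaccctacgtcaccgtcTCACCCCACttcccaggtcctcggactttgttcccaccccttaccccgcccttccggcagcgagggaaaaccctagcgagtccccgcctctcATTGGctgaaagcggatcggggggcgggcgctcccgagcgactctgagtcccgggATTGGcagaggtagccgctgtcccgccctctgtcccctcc
Idi1: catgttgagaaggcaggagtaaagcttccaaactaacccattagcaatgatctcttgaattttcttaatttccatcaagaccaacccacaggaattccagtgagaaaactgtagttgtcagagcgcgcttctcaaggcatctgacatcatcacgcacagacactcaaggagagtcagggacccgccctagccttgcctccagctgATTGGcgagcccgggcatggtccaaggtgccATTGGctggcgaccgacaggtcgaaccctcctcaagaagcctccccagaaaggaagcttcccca
Insig1: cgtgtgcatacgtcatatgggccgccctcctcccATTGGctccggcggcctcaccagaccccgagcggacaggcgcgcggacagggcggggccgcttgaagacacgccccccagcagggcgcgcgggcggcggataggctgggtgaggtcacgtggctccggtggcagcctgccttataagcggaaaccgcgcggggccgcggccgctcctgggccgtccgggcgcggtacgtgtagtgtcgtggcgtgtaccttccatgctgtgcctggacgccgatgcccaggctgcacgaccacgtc
Insig2: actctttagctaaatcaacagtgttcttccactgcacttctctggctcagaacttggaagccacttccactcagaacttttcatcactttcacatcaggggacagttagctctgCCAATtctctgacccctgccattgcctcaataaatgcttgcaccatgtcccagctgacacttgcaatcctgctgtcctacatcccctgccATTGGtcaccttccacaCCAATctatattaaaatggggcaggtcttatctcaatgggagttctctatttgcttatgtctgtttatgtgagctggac
RefSeq promoters were matched for 29 of the 37 genes, 38 promoters in all. CCAAT occurred in 78.9% of 19 promoters of the sterol class, in 4 of 8 of the fatty acid class, in 20.0% of 5 of the LXR class and in 37.4% of all 32851 promoters. The Sp1 box GGGCGG occurred in 84.2% of the sterol promoters and in 35.7% of all, and the E-box CACGTG in 21.1% and 7.15%. The strict sterol element was found in 1 member promoter, that of Hmgcs1, and in 1.24% of all. All motifs were searched on both strands, the sterol element can share its last letters with an E-box or NF-Y box, and a match is one of letters only.

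Levels per length of all annotated exons joined (GENCODE M21) placed fatty acid desaturation highest. For some genes this length is far above that of the longest coding transcript. It was 4.208 kb against 1382 bases for Fdps and 6.144 kb against 2044 bases for Msmo1. The order of the genes therefore depends on this choice of length. Scd1, the stearoyl-CoA desaturase that makes oleate, had a median of 2470 normalized counts per kb of exon over the 11 libraries, and its neighbour Scd2 on chromosome 19 had 1260. Both are close paralogs, and how reads shared between them were counted is not given in the sources used here. The cholesterol efflux pump Abca1 followed at 1024, then Mylip at 981 and Acly, which supplies cytosolic acetyl-CoA, at 879. By this measure the highest sterol enzymes were Fdft1 (squalene synthase, 745), Idi1 (isopentenyl diphosphate isomerase, 587) and Cyp51 (lanosterol demethylase, 550). Of these, Fdft1 overlaps Ctsb and Cyp51 overlaps Akap9. The lowest sterol genes by the same measure were Lss, the cyclase that makes lanosterol, at 56.1, and the sterol carrier Stard4 at 48.0. Below them were the sterol reductase Tm7sf2 at 44.6 and Dhcr7, the last reductase of cholesterol synthesis, at 30.8. Abcg1 was lowest of all at 3.63, and its libraries spanned 2.63 to 6.68 on the log2 scale.

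Against high glucose alone, no gene of these pathways passed the test with Hsp70. The 20 sterol genes had a median log2 difference of -0.09, with 15 below 0, and the 9 fatty acid genes one of -0.06, with 6 below 0; the 5 LXR genes were at 0.04, the 3 control genes at 0.05 and all 18248 genes at 0.00. By limma with Benjamini-Hochberg adjustment 0 of 37 members were called, and 0 of all genes (0%). At an unadjusted p below 0.05 there were 0 of the 37 and 136 of all genes (0.745%), and with the file set as a block 1 of the 37 and 305 of all genes (1.67%). The groups did not overlap for 0 of the 37, where 0.285% of all genes were apart and higher with Hsp70 and 0.323% apart and lower. The 95% interval of the difference lay inside 1 log2 unit on either side for 36 of 37 genes, so that a change of that size fell outside it for all of them except Abcg1 (-2.53 to 1.62).

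The members with the smallest unadjusted p-values were Idi1, Hmgcs1, Insig1 and Hsd17b7, none of which passed. Idi1 was at 10.47, 10.75, 10.80 and 11.24 with Hsp70 in sets 2 to 5, and at 11.20, 10.90, 10.94 and 11.26 in high glucose. Every library with Hsp70 was below the high glucose library of its own set, with differences of -0.73, -0.15, -0.14 and -0.03, but the groups overlapped. The pooled difference of Idi1 was -0.26 (SE 0.166, 95% interval -0.63 to 0.10; limma, adjusted p = 1.00). Hmgcs1, which makes HMG-CoA, was at 10.07, 10.20, 10.26 and 10.95 with Hsp70, and at 10.36, 10.60, 10.71 and 10.94 in high glucose. It was lower in 3 of 4 sets and differed by -0.28 (SE 0.198, interval -0.71 to 0.15; limma, adjusted p = 1.00). Hsd17b7, a 3-ketosterol reductase, was at 9.86, 9.74, 8.85 and 10.44 with Hsp70, and at 10.29, 9.76, 9.86 and 10.32 in high glucose, so that its difference of -0.34 (SE 0.304) had its largest term in set 4.

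The other sterol enzymes chosen for full values were nearer to 0. Sqle, the squalene epoxidase and a rate-limiting step, was at 9.73, 10.003, 10.75 and 10.28 with Hsp70, and at 10.43, 9.995, 10.07 and 10.25 in high glucose. Its difference of 0.01 (SE 0.203) averages -0.70 in set 2 and 0.68 in set 4 with values near 0 in the other sets. Msmo1, the sterol C4-methyl oxidase, was at 11.05, 10.29, 11.10 and 11.10 with Hsp70, and at 11.23, 10.38, 10.47 and 11.11 in high glucose, a difference of 0.09 (SE 0.241). Both groups had their lowest Msmo1 library in set 3.

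Insig1 and Idi1 were the 2 members that lay on the same side in all 4 sets, both lower with Hsp70, where 4.42% of all genes were lower in every set and 3.89% higher. Insig1 was at 10.43, 10.06, 10.52 and 10.22 with Hsp70, and at 10.77, 10.15, 10.68 and 10.72 in high glucose. The within-set differences were -0.34, -0.09, -0.16 and -0.50, and the pooled difference was -0.27 (SE 0.200, interval -0.71 to 0.16; limma, adjusted p = 1.00). Insig1 was the member below 0.05 with the block, at an unadjusted limma p of 0.0477 and an adjusted p of 1.00. The count of 2 among 37 members is close to that background share. Of the control genes, Srebf2 was at 10.69, 10.94, 11.19 and 11.36 with Hsp70, and at 11.11, 11.08, 11.16 and 11.15 in high glucose, a difference of -0.08 (SE 0.149). Its 4 libraries with Hsp70 spread on both sides of the tight high glucose libraries.

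Among the fatty acid genes, Srebf1 was at 10.32, 10.85, 10.83 and 10.68 with Hsp70, and at 10.61, 10.79, 10.55 and 10.61 in high glucose. It differed by 0.03 (SE 0.152). Fasn, the fatty acid synthase, was at 11.71, 12.16, 12.39 and 12.41 with Hsp70, and at 12.23, 12.04, 12.44 and 12.15 in high glucose, a difference of -0.05 (SE 0.186). Scd1 was at 13.56, 14.82, 12.96 and 13.68 with Hsp70, and at 13.46, 14.77, 13.52 and 13.59 in high glucose. Its set 3 libraries were the highest of both groups, and the difference was -0.08 (SE 0.387). Scd2 was at 12.17, 12.95, 12.48 and 12.93 with Hsp70, and at 12.65, 12.92, 12.77 and 12.75 in high glucose, a difference of -0.14 (SE 0.177). The other lipogenic members, Acaca (the acetyl-CoA carboxylase), Acly, the elongase Elovl6 and the desaturases Fads1 and Fads2, did not pass either.

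In the LXR arm, Abca1 and Abcg1 varied widely between libraries. Abca1 was at 12.86, 14.03, 12.07 and 13.95 with Hsp70, and at 12.81, 13.56, 13.34 and 13.39 in high glucose. The differences within sets 3 and 5 were 0.48 and 0.56 and within set 4 -1.27, which gave a pooled difference of -0.05 (SE 0.426). Abcg1 was at 3.86, 6.53, 5.09 and 3.09 with Hsp70, and at 4.78, 6.58, 4.81 and 4.22 in high glucose, a difference of -0.46 (SE 0.946). Mylip was at 11.44, 11.55, 11.87 and 11.80 with Hsp70, and at 11.48, 11.52, 11.48 and 12.04 in high glucose, a difference of 0.04 (SE 0.164). The receptors Nr1h3 (LXR alpha) and Nr1h2 (LXR beta) did not pass.

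**Figure D1:**
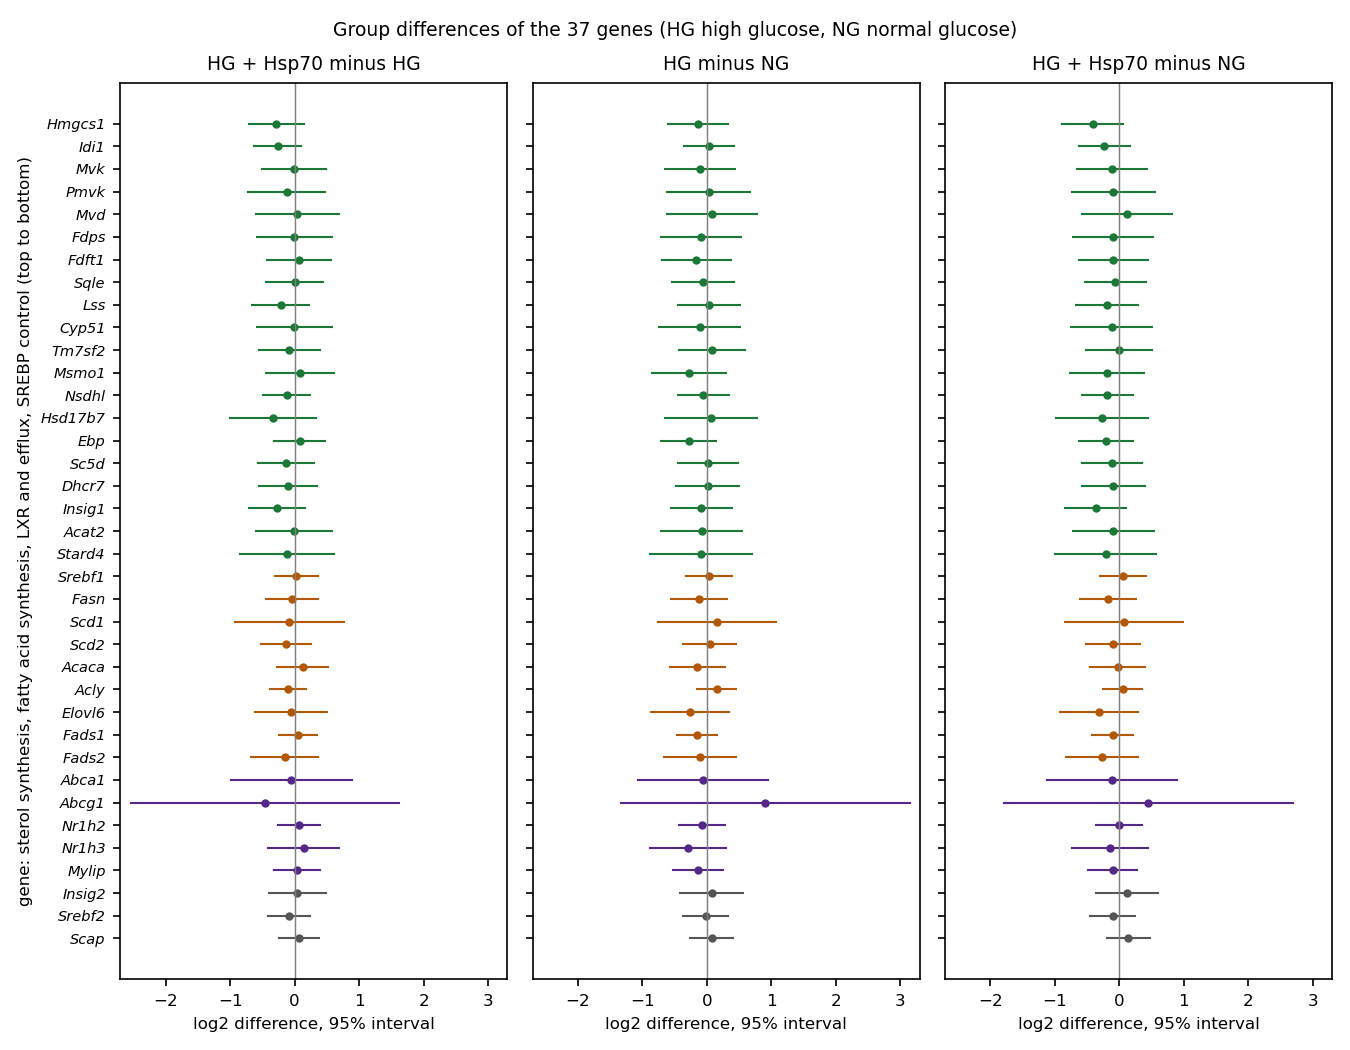
Log2 difference of each of the 37 genes (points) with its 95% interval (lines) from the limma model of 11 libraries, by class, in the 3 group comparisons. In high glucose with Hsp70 against high glucose 36 of 37 intervals lie inside 1 log2 unit on either side, and no gene passed the test.

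The pooled values average sets that lay on opposite sides of 0. In set 2 the library with Hsp70 was below the high glucose library for 20 of 20 sterol genes (median difference -0.51) and 8 of 9 fatty acid genes (-0.38), where 47.7% of all genes tested were below 0. The lowest sterol differences in set 2 were those of Pmvk (-1.05) and Mvd (-0.93), the phosphomevalonate kinase and the diphosphomevalonate decarboxylase, and of Fdps (-0.93), the farnesyl diphosphate synthase. In set 3 the sterol genes were 14 of 20 below 0 with a median of -0.06. In set 5, 4 of 20 sterol genes and 0 of 9 fatty acid genes were below 0, with medians of 0.17 and 0.16, where 47.8% of all genes were. Each set gives 1 library a group, so these within-set counts carry no test. Without set 2 the pooled sterol median was 0.13 and that of the fatty acid genes 0.11.

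Set 4 split the sterol genes. Of the 20, 11 were above 0 and 9 below, with the largest differences at Fdps (0.83), Mvk (0.74), the mevalonate kinase, and Sqle (0.68), and the smallest at Hsd17b7 (-1.01), Stard4 (-0.98), Sc5d (-0.61), the sterol C5-desaturase, and Lss (-0.56). The SD of the 37 differences was 0.542 in set 4, against 0.332 in set 2, 0.141 in set 3 and 0.312 in set 5. In set 4 the difference correlated across the 37 genes with the log2 length of the transcript (r = -0.588) and with its GC content (r = 0.473), and across 15995 coding genes with r = -0.223 and 0.264. In sets 2, 3 and 5 the members' correlation with length was 0.352, 0.296 and 0.152. Against normal glucose it was 0.539, 0.175 and -0.137 in sets 3, 4 and 5 for high glucose. With Hsp70 against normal glucose it was 0.546, -0.421 and -0.004. The values of -0.588 and -0.421 share the Hsp70 library of set 4, and those of 0.539 and 0.546 share the normal glucose library of set 3. These are correlations across genes of the same pair of libraries, which are not independent replicates. The part of length or GC content in the values of any set was not tested.

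**Figure D2:**
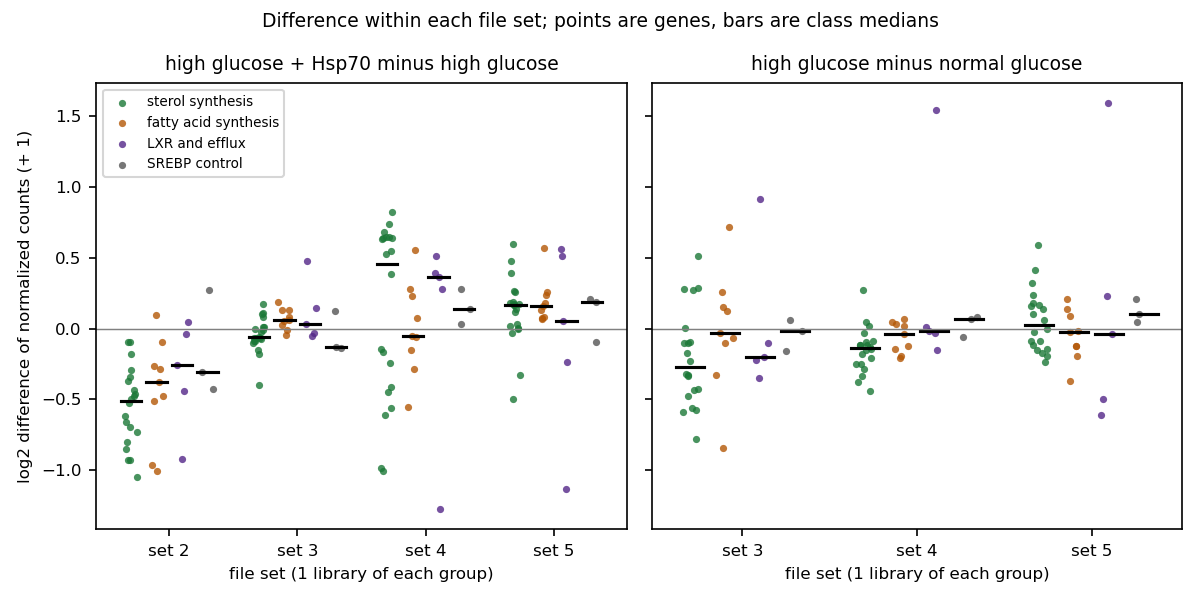
Log2 difference within each file set for the 37 genes (points) and the class medians (bars), for high glucose with Hsp70 minus high glucose (left) and high glucose minus normal glucose (right). All 20 sterol genes lie below 0 in set 2 on the left, and 16 of 20 lie above 0 in set 5.

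**Figure D3:**
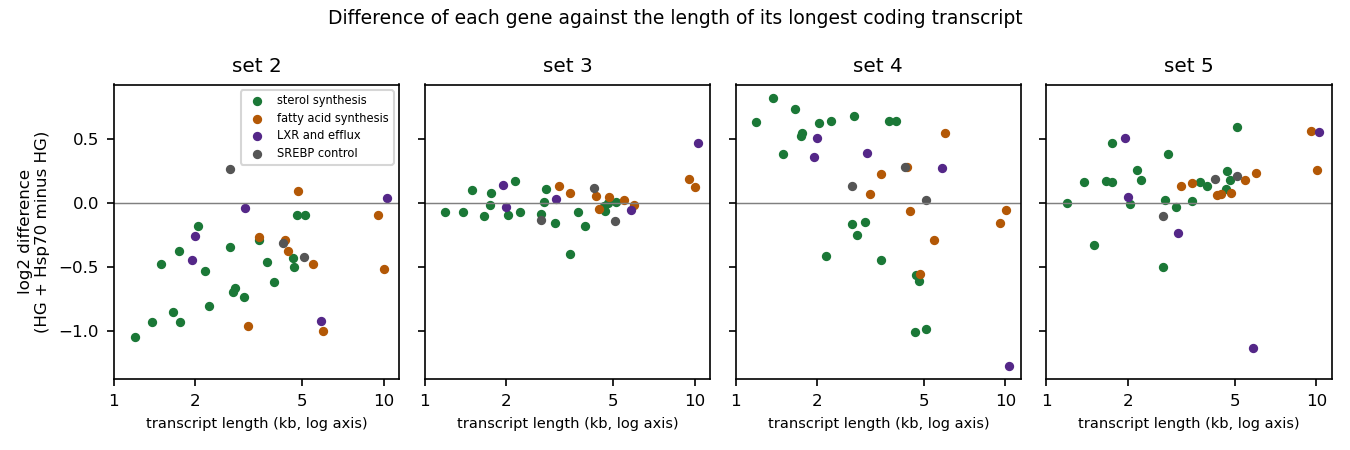
Log2 difference between the library with Hsp70 and the high glucose library of the same file set, for the 37 genes, against the length of the transcript. The slope is downward in set 4 (r = -0.588) and not in sets 2, 3 and 5 (r = 0.352, 0.296 and 0.152).

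The mean over the sterol class showed the same spread by library. It was 9.20, 9.40, 9.71 and 9.86 with Hsp70 in sets 2 to 5, 9.75, 9.44, 9.59 and 9.74 in high glucose, and 9.65, 9.74 and 9.68 in normal glucose in sets 3 to 5. The means and SDs of the groups were 9.54 ± 0.299 with Hsp70 and 9.63 ± 0.146 in high glucose (n = 4 each), and 9.69 ± 0.0458 in normal glucose (n = 3). The fatty acid class was at 11.75 ± 0.277 with Hsp70, 11.80 ± 0.0505 in high glucose and 11.84 ± 0.0472 in normal glucose. The 4 libraries with Hsp70 spanned a wider range than the other groups in both classes, and the ranges overlapped. The mean over all genes tested had SDs in the same order, 0.125 with Hsp70, 0.0717 in high glucose and 0.0323 in normal glucose. Normal glucose has no library in set 2, which held the lowest Hsp70 library of both classes.

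**Figure D4:**
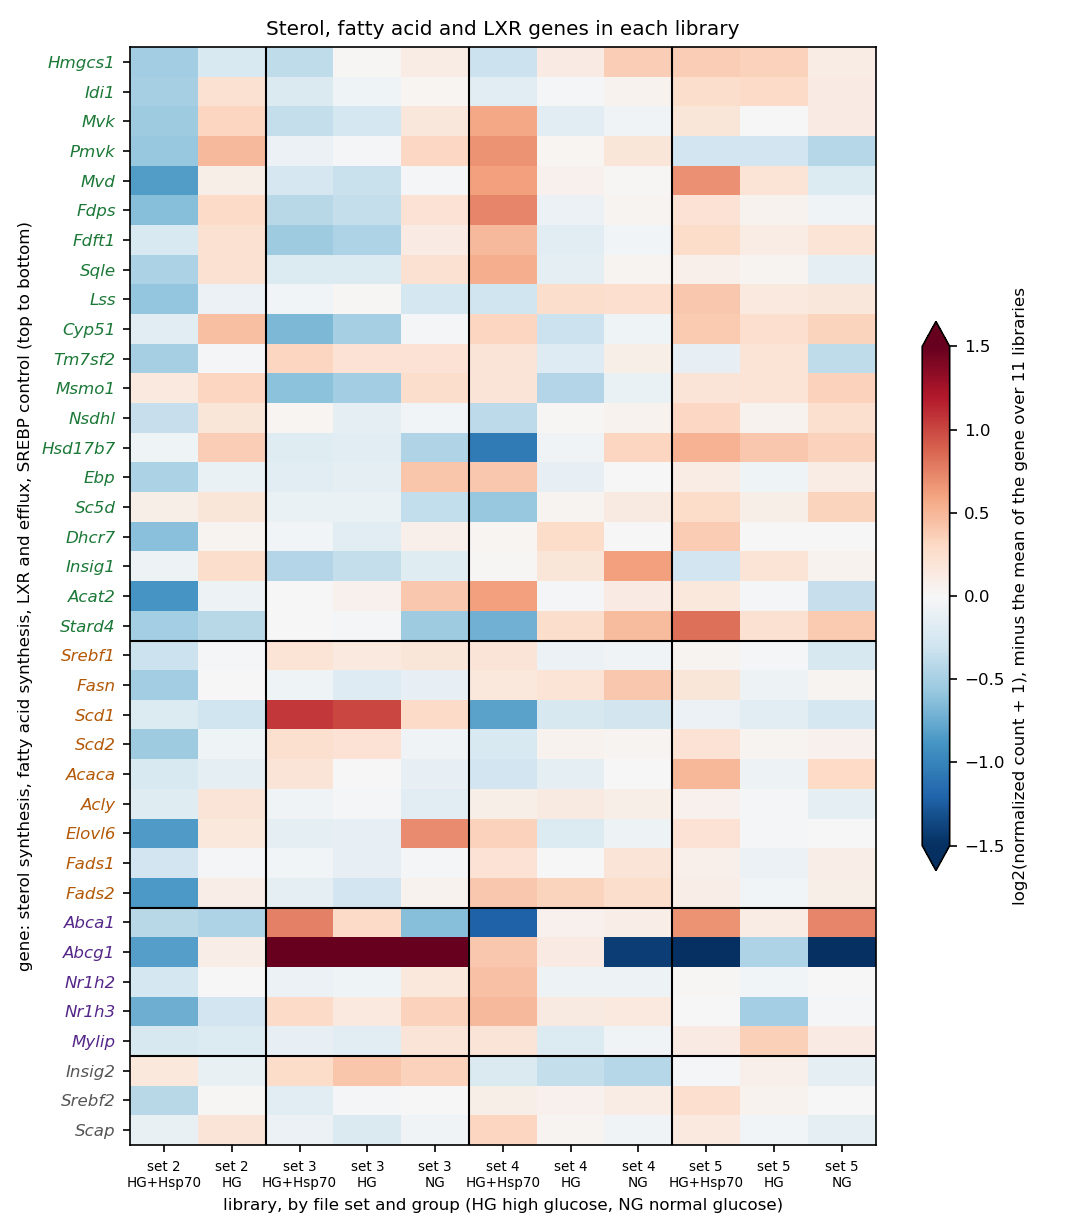
Log2 level of each of the 37 genes in every library relative to the gene's own mean over 11 libraries, by class (rows), with the libraries (columns) ordered by file set and, within a set, by group. The colour scale ends at 1.5 on either side, beyond which Abcg1 lies. The Hsp70 library of set 2 is low over most of the sterol class.

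Between high glucose and normal glucose, 0 of 37 members were called by limma after Benjamini-Hochberg adjustment, and 0 of all genes (0%). The medians were -0.07 for the sterol genes (12 of 20 below 0), -0.11 for the fatty acid genes (5 of 9) and -0.07 for the LXR genes, against -0.01 over all genes. With the file set as a block, which pairs these libraries, the medians were -0.03 for the sterol genes (11 of 20 below 0), 0.00 for the fatty acid genes (4 of 9) and -0.03 for the LXR genes. At an unadjusted p below 0.05 there were 0 of 37 and 185 of all genes (1.01%), and with the file set as a block 1 of 37, Abcg1, and 636 of all genes (3.49%). The 95% interval lay inside 1 log2 unit on either side for 34 of 37 genes, the exceptions being Abca1, Abcg1 and Scd1.

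Ebp was the only member whose groups did not overlap, lower in high glucose, where 1.32% of all genes were apart and lower and 1.06% apart and higher. This isomerase of late cholesterol synthesis was at 9.39, 9.35, 9.37 and 9.43 in high glucose in sets 2 to 5, and at 9.91, 9.49 and 9.60 in normal glucose in sets 3 to 5. Its difference was -0.28 (SE 0.194, interval -0.70 to 0.14; limma, adjusted p = 1.00). Msmo1, at 11.23, 10.38, 10.47 and 11.11 in high glucose and 11.17, 10.80 and 11.25 in normal glucose, differed by -0.28 (SE 0.260) and overlapped. Acly was at 12.39, 12.18, 12.33 and 12.18 in high glucose and at 12.02, 12.28 and 12.04 in normal glucose, a difference of 0.15 (SE 0.140). Nr1h3 was at 8.50, 8.94, 8.92 and 8.27 in high glucose and at 9.14, 8.93 and 8.77 in normal glucose, a difference of -0.29 (SE 0.272).

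Within sets 3, 4 and 5, 10 members were lower in high glucose in every set, where 14.3% of all genes were, and 3 were higher in every set, where 11.3% were. The 10 were the sterol enzymes Mvk, Fdft1, Cyp51, Msmo1, Nsdhl and Ebp, the fatty acid genes Fasn, Elovl6 and Fads1, and Nr1h3; the 3 were Insig2, Scd1 and Acly. The sterol medians were -0.27, -0.14 and 0.03 in sets 3, 4 and 5, with 15, 17 and 10 of 20 genes below 0. Abcg1 was at 4.78, 6.58, 4.81 and 4.22 in high glucose and at 6.68, 3.27 and 2.63 in normal glucose. It was higher in high glucose by 1.54 and 1.59 in sets 4 and 5 and at -0.10 in set 3, and the pooled difference was 0.91 (SE 1.02). With the file set as a block its difference was 1.09 (SE 0.428; limma, unadjusted p = 0.0304, adjusted p = 1.00).

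Elovl6 was at 11.67, 11.39, 11.32 and 11.50 in high glucose and at 12.23, 11.44 and 11.52 in normal glucose, a difference of -0.26 (SE 0.277). Hmgcs1 was at 10.70, 10.96 and 10.70 in normal glucose in sets 3 to 5, and high glucose differed from it by -0.13 (SE 0.214). Idi1 was at 11.01, 11.03 and 11.10 in normal glucose, and high glucose differed by 0.03 (SE 0.180). Sqle was at 10.43, 10.24 and 10.07 in normal glucose, and high glucose differed by -0.06 (SE 0.219). In all 4 genes the groups overlapped.

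The fatty acid genes and the regulators were likewise not called. Fasn was at 12.10, 12.63 and 12.27 in normal glucose (difference of high glucose -0.12, SE 0.200). Scd1 was at 14.05, 13.49 and 13.51 in normal glucose (0.15, SE 0.418). Srebf1 was at 10.82, 10.59 and 10.41 in normal glucose (0.03, SE 0.164). None of them passed the limma test. Scd2 was at 12.66, 12.75 and 12.77 in normal glucose (0.04, SE 0.191), and Srebf2 at 11.10, 11.22 and 11.10 (-0.02, SE 0.160). Abca1 was at 12.64, 13.37 and 14.00 in normal glucose (-0.06, SE 0.460), the widest range after Abcg1.

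High glucose with Hsp70 against normal glucose shares its libraries with both other comparisons. By limma with Benjamini-Hochberg adjustment 0 of 37 members were called, and 0 of all genes (0%), and at an unadjusted p below 0.05 there were 0 of 37 and 178 of all genes (0.975%). With the file set as a block these were 1 of 37, Insig1, and 587 of all genes (3.22%). The groups overlapped for all 37, where 0.482% of all genes were apart and higher and 1.24% apart and lower. Of 20 sterol genes 19 had a difference below 0, with a median of -0.12, where 50.9% of all genes were below 0. This pooled count includes the Hsp70 library of set 2, which has no normal glucose library in its set. That library had the lowest sterol mean of all 11 libraries (9.20). Hmgcs1 had the smallest p of the members, with a difference of -0.41 (SE 0.214, interval -0.88 to 0.05; limma, unadjusted p = 0.077, adjusted p = 1.00), and Insig1, at 10.32, 11.12 and 10.56 in normal glucose, differed by -0.36 (SE 0.217). Elovl6 was at 10.67, 11.38, 11.87 and 11.74 with Hsp70 in sets 2 to 5 and at 12.23, 11.44 and 11.52 in normal glucose in sets 3 to 5, a difference of -0.32 (SE 0.277).

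With the file set as a block 16 of 20 sterol genes were below 0 with a median of -0.10, and the fatty acid genes were 4 of 9 with a median of 0.00. Within single sets the direction differed. The sterol medians were -0.33, 0.20 and 0.16 in sets 3, 4 and 5, with 14, 8 and 4 of 20 genes below 0. Insig1 was lower with Hsp70 in all 3 sets, where 9.92% of all genes were, with a blocked difference of -0.41 (limma, unadjusted p = 0.0124, adjusted p = 1.00), and Tm7sf2 and Srebf1 were higher in all 3, where 7.62% were.

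In all, 43 other genes of sterol and fatty acid handling were tested, and 0 of 43 were called in any of the 3 group comparisons. Their medians were -0.01 for Hsp70 against high glucose, -0.06 for high against normal glucose and -0.02 for Hsp70 against normal glucose. In the same order 0, 5 and 5 of 43 had an unadjusted limma p below 0.05 with the file set as a block. Of all genes 1.67%, 3.49% and 3.22% did. The groups were apart and lower for 0, 2 and 2 of 43, where 0.323%, 1.32% and 1.24% of all genes were. Both comparisons with normal glucose share its 3 libraries.

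Set 3 differed from the other sets in 4 of the 37 genes. The contrast of set 3 with the mean of sets 2, 4 and 5, with group as a covariate, was chosen with earlier results of these data known, and libraries of 1 set are not independent of each other. By limma with Benjamini-Hochberg adjustment 2317 of all genes (12.7%) were called, 8.21% higher and 4.48% lower, and of the 37 members 3 were higher and 1 lower, a share near that background. Without the high glucose library of set 3, 1 member was called, and without the Hsp70 library of set 4, 8 were. Abcg1 rose by 2.68 (SE 0.370, adjusted p = 0.00137), to 6.53 with Hsp70, 6.58 in high glucose and 6.68 in normal glucose, against 2.63 to 5.09 in the other sets. Scd1 rose by 1.09 (SE 0.181, adjusted p = 0.00366), to 14.05 to 14.82 in set 3, against 12.96 to 13.68 in the other sets. The set 3 libraries of both genes lay above all others. In all, 4 members were above all other libraries in set 3 (Abcg1, Scd1, Insig2 and Tm7sf2) and 0 below, where 8.14% and 3.85% of all genes were.

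The Insig genes were called in opposite directions in set 3. Insig2 rose by 0.47 (SE 0.104; limma, adjusted p = 0.0166) and was at 10.67 with Hsp70, 10.80 in high glucose and 10.74 in normal glucose, against 9.96 to 10.55 in the other sets. Insig1 fell by 0.47 (SE 0.116; limma, adjusted p = 0.026) and was at 10.06 with Hsp70, 10.15 in high glucose and 10.32 in normal glucose, against 10.22 to 11.12 in the other sets. Insig2 did not overlap between set 3 and the rest, and Insig1 did. Insig1 is itself a target of SREBP2. The call of Insig1 was lost in 10 of 20 alternative settings.

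The sterol enzymes of set 3 had a median of -0.15, with 16 of 20 sterol genes below 0, and none of them other than Insig1 was called. Cyp51 (-0.56, SE 0.191; limma, adjusted p = 0.0926) and Msmo1 (-0.45, SE 0.174; adjusted p = 0.140) had the largest values among them. Over all genes the median was 0.00. The LXR target Abca1, with a difference of 0.23 (SE 0.370), and Mylip, with -0.02 (SE 0.129), did not pass, and neither did Srebf1, with 0.27 (SE 0.112), so that of these LXR targets only Abcg1 was called.

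Markers of other cell types moved with set 3, where 8.21% of all genes were called higher and 4.48% lower. By the same limma contrast 11 of 12 endothelial, 10 of 11 macrophage, 5 of 7 tested adipocyte, 3 of 5 tested Schwann cell, 3 of 5 pericyte, 2 of 5 smooth muscle and 3 of 9 fibroblast markers were called higher in set 3, and 1 pericyte marker, Cspg4, lower. The summed level of 11 macrophage markers was 12.16 to 12.41 in set 3, against 8.54 to 9.50 in the other sets. Of these markers, Fcgr1, C1qa, C1qb and C1qc were at 0 in at least 1 library of set 2. In all libraries outside set 3 they reached at most 1.78, 1.01, 1.25 and 1.17. The summed level of 8 adipocyte markers was 12.37 to 12.57 in set 3, against 11.31 to 11.60. Across the groups the macrophage sum ranged from 8.54 to 12.16 with Hsp70, 8.92 to 12.41 in high glucose and 8.77 to 12.24 in normal glucose. The part of these cells in the levels of Abcg1, Scd1, Insig1 and Insig2 was not tested.

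**Figure D5:**
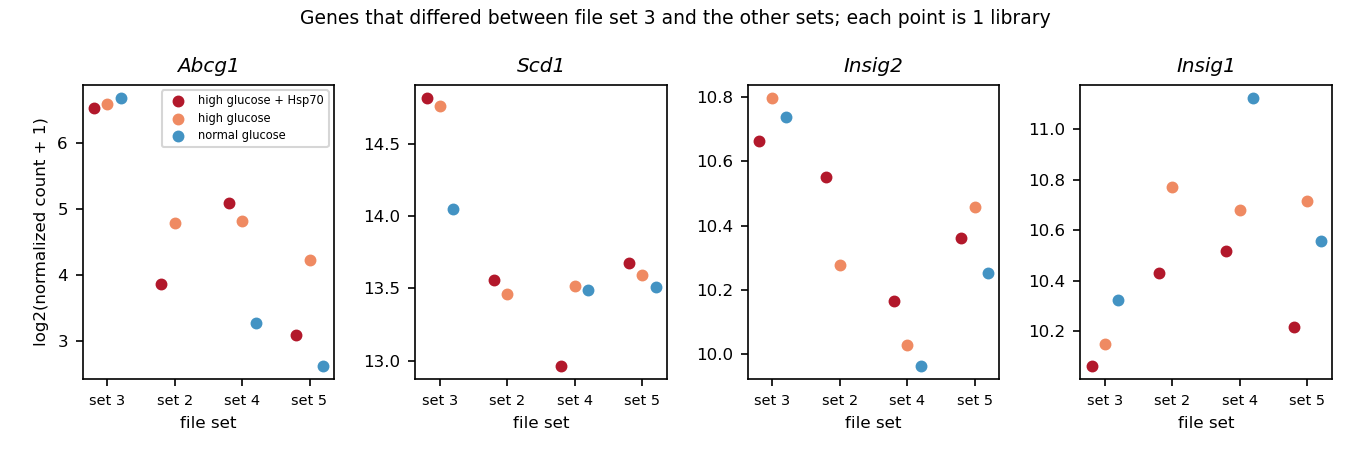
Log2 levels of the 4 genes called in file set 3 against the other sets, in all 11 libraries (points), by file set with set 3 at the left and coloured by group. Abcg1, Scd1 and Insig2 are higher in all 3 set 3 libraries than in the other 8, and Insig1 is low in set 3 with overlap.

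Of the 43 other pathway genes, 4 were higher and 6 lower in set 3, where 8.21% and 4.48% of all genes were. Those higher included Pnpla3 (1.33, SE 0.219; limma, adjusted p = 0.00358), a lipid droplet acyl hydrolase and SREBP1c target. Those lower included Nceh1 (-1.62, SE 0.171; adjusted p = 0.00027), a cholesteryl ester hydrolase, and Npc1 (-0.68, SE 0.130; adjusted p = 0.00801), which exports cholesterol from lysosomes. Nceh1 was at 8.89 with Hsp70, 8.79 in high glucose and 8.85 in normal glucose in set 3, against 9.35 to 11.08 elsewhere. An F test over the 4 sets called 2165 of all genes (11.9%) and the members Abcg1, Scd1 and Insig2.

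The genes whose level went most with the sterol mean were found over the 11 libraries after file set means were taken out, as Pearson correlations and as a description only. Among the genes tested outside the 37, high values were those of Ccdc65 (0.980), a cilium assembly gene, Eln (0.967), which encodes elastin, 4932435O22Rik (0.946) and Wbp1l (0.944). Without set 2 the values over 9 libraries were 0.939, 0.887, 0.865 and 0.820. Of the members outside the sterol class, Srebf2 (0.920) and Elovl6 (0.892) were closest, with 0.771 and 0.834 without set 2. These libraries share sets, depth and the sign of the set 2 difference, and Ccdc65 and Eln were picked from 18248 genes for their high values.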

How the data were processed

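Trizol was used to extract RNA, and the SMARTer kit for the libraries keeps strand, per the labels. The authors deposited log2 values in 1 file a library; their form shows log2(normalized count + 1). Undetected genes are at 0 in sets 2 and 3, while sets 4 and 5 hold fewer zeros and small values above 0. TopHat, edgeR and mm10 are named in the submitters' processing notes, without versions. How counts were normalized, the annotation, whether counting used strand and how multi-mapped reads were treated is not given in the sources used here, so overlapping genes and close paralogs are uncertain.

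Of 23282 rows in a file, 44 were further copies of a symbol and were dropped, keeping that of the highest mean. The 18248 genes tested had 1 or more normalized counts in 3 or more libraries. Log2 values were compared with limma 3.58.1 in R 4.3.3 as 1 model of 3 group means with trend and robust options, and Benjamini-Hochberg adjustment over all genes tested at 0.05, without a fold minimum. The contrast of file sets used set means with group as a covariate. The group model was tested on simulated data for Hsp70 against high glucose only, without differences between file sets. The contrast of file sets was not simulated. Positions, exon lengths and transcripts came from GENCODE M21 and promoters from RefSeq. The plots used matplotlib 3.10.9 (Python 3.11.15).

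The members and lists were chosen with earlier results of these data known. Values are given for 13 genes that stand for the arms of the pathway and for the 4 members with the smallest unadjusted p in each comparison, 18 in all. From the background list up to 4 genes per comparison could be named, and the 5 genes outside the members closest to the sterol mean; some genes that these rules name are not reported here.

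Libraries of the same file set deviated together in high and normal glucose (correlations of deviations from group means 0.594, 0.302 and 0.285 in sets 3, 4 and 5). For Hsp70 and high glucose they were 0.422, 0.691, 0.0586 and 0.262 in sets 2 to 5, and 1 of these was not above 0.1. Between Hsp70 and normal glucose they were 0.458, 0.0219 and 0.372 in sets 3, 4 and 5. Because of the low value for Hsp70 and high glucose the model was kept without a block, and the block is an alternative. This choice was also applied to high against normal glucose, where no value was that low. The p-values and intervals of the model without the block ignore the pairing within sets, and differences between sets stay in its spread. By limma without the block, 0.745% to 1.01% of all genes had an unadjusted p below 0.05, against 1.67% to 3.49% with it. These shares are below what the 0.05 threshold alone would give if no gene changed. The p-values may therefore be too large and the intervals too wide, most of all without the block.

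Alternative settings were run where they applied: blocks by file set or title number, no group covariate, subsets of file sets or groups, other filters, pseudocounts, scalings and variance options, sample weights, and each library left out in turn.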

Additional observations from a re-analysis of the deposited data

Results flagged for a closer look

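In all, 4 of 44 sets of 4 libraries, each within 1 group, had a library far from the other 3. This was judged by the gap to its nearest neighbour as a share of the whole range (Dixon's test). The 4 flagged sets were each 1 gene in 1 group. Chance alone flags about 1 in 20 such groups. Msmo1 with Hsp70 had a share of 0.931, with the set 3 library at 10.29 and the others at 11.05 to 11.10. Insig1 in high glucose had a share of 0.857, with set 3 at 10.15 and the others at 10.68 to 10.77. Scd1 in high glucose had a share of 0.901, with set 3 at 14.77 and the others at 13.46 to 13.59. Mylip in high glucose had a share of 0.923, with set 5 at 12.04 and the others at 11.48 to 11.52. In 3 of the 4 the library that stood apart was that of set 3.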

How the results depend on the processing

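No member was called in any of the 3 group comparisons under any alternative run, and no result reversed a call. Without set 2 (sets 3, 4 and 5 only, with or without the block) the Hsp70 difference from high glucose had a sterol median of 0.13 and a fatty acid median of 0.11, and from sets 4 and 5 alone a sterol median of 0.19. The control median was -0.0949 in sets 2 and 3 alone. Against normal glucose the sterol median with Hsp70 was -0.45 in sets 2 and 3 alone, where normal glucose has 1 library assumed to vary like the others, and 0.19 in sets 4 and 5 alone; the control median was -0.13 in sets 2 and 3 alone. Leaving out 1 library at a time moved the sterol median of Hsp70 against high glucose between -0.16 and 0.04 and the fatty acid median between -0.13 and 0.11, both above 0 only without the Hsp70 library of set 2. Against normal glucose it gave Hsp70 sterol medians of -0.24 to -0.04 and fatty acid medians of -0.17 to 0.06; for high against normal glucose these were -0.12 to 0.02 and -0.13 to 0.03. It also gave control medians of -0.0696 (without high glucose replicate 3) to 0.0588 against high glucose, and -0.0585 (without normal glucose replicate 2) to 0.158 against normal glucose. It gave 0 to 3 genes called in both Hsp70 comparisons, 3 without the Hsp70 library of set 3.

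The replicate block by file set called 0 genes in each group comparison. It changed no call after adjustment. Each of 6 libraries correlated best with its own set between high and normal glucose, 6 of 8 between Hsp70 and high glucose, and 4 of 6 between Hsp70 and normal glucose.

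The set contrasts depended more on the settings. For set 3 against the rest, sample weights gave 5398 genes and 9 members, and leaving out 1 library gave 966 to 3804 genes and 1 to 8 members. The lowest came without high glucose replicate 2 of set 3, and 1214 genes without its Hsp70 library. The highest came without Hsp70 replicate 3 of set 4. For differences among the 4 sets, the settings without a filter gave 1375 genes and 1 member, without trend and robust variances 1396 and 1, and with sample weights 6152 and 9. Leaving out 1 library gave 613 to 5195 genes and 1 to 9 members. Abcg1 stayed past the threshold in set 3 in all 20 alternatives (adjusted p up to 0.0193), Scd1 in all but 1 (0.051 without high glucose replicate 2), Insig2 in all but 3 (up to 0.154) and Insig1 in 10 (up to 0.205). The causes were not tested. With 3 or 4 libraries a group, no change and a small change could not be told apart for any member. The interval was widest for the low-level Abcg1.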
